A study of Mus musculus with 17 samples.

Results

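MHC class I antigen presentation was examined through 10 genes in cultured erythroid blasts of Spi1-transgenic mice. The genes were chosen by symbol: the chains of the class I molecule (B2m, H2-K1 and H2-D1), the peptide transporter and its tether to the class I molecule (Tap1, Tap2 and Tapbp), the inducible catalytic subunits of the immunoproteasome (Psmb8 and Psmb9) and the transactivators Nlrc5 and Ciita. All 10 symbols were found among the 26029 genes counted in model 1 and among the 24659 genes counted in model 2. In class I presentation, proteasomes cut cytosolic proteins into peptides, the heterodimer of TAP1 and TAP2 pumps the peptides into the endoplasmic reticulum, and tapasin (Tapbp) holds empty class I molecules beside the transporter until a peptide is bound. The heavy chain (H2-K1 or H2-D1) then travels to the cell surface with beta-2-microglobulin (B2m), where CD8 T cells read the peptide. NLRC5 is known as the transactivator of class I genes and CIITA as that of class II genes, and interferons are known to raise both the immunoproteasome subunits and the transporter. Red cell precursors are known to reduce their class I molecules as they mature.

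Each library came from the blasts of 1 mouse, grown in culture with erythropoietin (EPO). All mice carried a constitutively expressed Spi1 transgene (TgSpi1), which encodes the transcription factor PU.1. Model 1, on a DBA2JxFVB/N background, comprised 4 preleukaemic TgSpi1FA+/+ mice with intact Fanca (preleukemic_445, preleukemic_479, preleukemic_451 and preleukemic_138), 3 preleukaemic TgSpi1FA-/- mice with a homozygous Fanca deletion (preleukemic_77, preleukemic_224 and preleukemic_40) and 3 leukaemic TgSpi1FA-/- mice (leukemic_26, leukemic_28 and leukemic_39). Model 2, on a DBA2J background, comprised 4 preleukaemic TgSpi1FA+/+ mice (preleukemic_633, preleukemic_663, preleukemic_812 and preleukemic_837) and 3 leukaemic TgSpi1FA+/+ mice (leukemic_601, leukemic_606 and leukemic_921), whose disease arose after anaemic preleukaemic mice had been given blood transfusions repeatedly. Leukaemic blasts of model 1 therefore lacked Fanca and those of model 2 did not, and model 1 held no leukaemic TgSpi1FA+/+ blasts. Strain and library protocol also differed between the models (400 ng of RNA and 8 min of fragmentation in model 1, 300 ng and 2 min in model 2), so groups were compared within a model. Ages of the mice were not given in the sources used here. The mice are named by the ends of their sample titles, and values per mouse are given in the order in which the mice of each group are named here. Titles of the samples call the 3 preleukaemic TgSpi1FA-/- mice preleukaemic, whereas another field of the same records, and the headings of their columns in the count table, call them leukaemic. The titles were followed, and the paper also lists these 3 mice as preleukaemic.

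Libraries held 29964576 to 38217654 counts in model 1 and 37726753 to 40514205 counts in model 2. Levels are given as CPM, each count scaled to a common library size by edgeR's TMM factors. Fanca was between 0.615 and 2.30 CPM in the TgSpi1FA-/- blasts and between 28.1 and 83.5 CPM in the TgSpi1FA+/+ blasts. Spi1 was at 3.88 CPM in leukemic_39 and at 102.7 CPM or more in every other library, so the library labelled leukemic_39 went against the transgene that its label gives. Counts of preleukemic_445 and preleukemic_479 differed far less than those of any other pair within a group of the 2 tables (chi-square per degree of freedom 6.38, against 79.4 to 296 elsewhere). They still differed by more than sampling noise, which does not show that they are independent. They were kept as 2 samples because their titles name 2 mice, and results were also computed with them summed. In a second deposited table of 7 model 1 mice the same pair was at 249 and the other pairs at 275 to 529, so the closeness was a feature of the first table. Erythroid markers summed to between 1961 and 4982 CPM per library, whereas markers of B cells (0.521 CPM at most), T cells (0.170), macrophages and granulocytes (1.78) and stroma (3.68) were near 0. The list of dendritic cell markers reached 69.8 CPM through Zbtb46 alone. P-values measure the spread between these libraries, and in bulk RNA a lower level per cell cannot be told apart from fewer cells that express a gene.

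Of the 10 genes, 7 lie within 1352.0 kb of the major histocompatibility complex on chromosome 17 (GRCm38, positions of GENCODE M21). Tapbp (ENSMUSG00000024308, chr17:33915899-33929292) lies nearest the centromere, followed by H2-K1 (ENSMUSG00000061232, chr17:33996017-34000347, minus strand). Psmb9 (ENSMUSG00000096727, chr17:34181987-34187764, minus strand), Tap1 (ENSMUSG00000037321, chr17:34187553-34197225), Psmb8 (ENSMUSG00000024338, chr17:34197721-34201454) and Tap2 (ENSMUSG00000024339, chr17:34203527-34216321) follow each other with no protein-coding gene between them. Psmb9 and Tap1 point away from each other and their annotated gene models overlap by 212 bp on opposite strands. The strand setting of the counting was not given in the sources used here, so reads in those bases cannot be assigned to either gene with certainty. H2-D1 (ENSMUSG00000073411, chr17:35262730-35267499) lies 1046408 bp beyond Tap2. B2m (ENSMUSG00000060802) is at chr2:122147686-122153083, Ciita (ENSMUSG00000022504) at chr16:10480059-10528418 and Nlrc5 (ENSMUSG00000074151) at chr8:94434356-94527272, which is 28.7 Mb from Fanca on the same chromosome. H2-K1 and H2-D1 are closely related to each other and to the H2-Q and H2-T genes, so their counts are uncertain wherever a read matched more than 1 of them.

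The promoters of the class I chains are shown because these genes share regulatory letters that the transporter and proteasome genes share only in part. Promoter windows of RefSeq (GRCm38.p6, mostly the bases just before the start annotated by RefSeq) were found for 7 of the genes, and Tap2, Nlrc5 and Ciita had no entry. These starts can differ from the GENCODE starts given above. The windows of Tapbp, Psmb8, Psmb9 and H2-D1 lie inside the GENCODE spans of these genes, so other promoters of them were not searched. Capitals in the B2m stretch mark an interferon regulatory factor motif (IRF, GAAANNGAA) and the letters TGACG (CREB) and ATTGG (the reverse of CCAAT, NF-Y), and capitals in the H2-K1 stretch mark overlapping matches of the NF-kB motif (GGGNNNNCC) and the same last pair. For H2-D1 only the 30 bases from TGACG to ATTGG are given.
B2m, chr2:122147509-122147643, plus strand: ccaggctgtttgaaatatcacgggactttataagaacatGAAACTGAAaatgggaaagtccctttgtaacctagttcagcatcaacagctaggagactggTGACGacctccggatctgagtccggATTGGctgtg
H2-K1, chr17:34000354-34000488, minus strand: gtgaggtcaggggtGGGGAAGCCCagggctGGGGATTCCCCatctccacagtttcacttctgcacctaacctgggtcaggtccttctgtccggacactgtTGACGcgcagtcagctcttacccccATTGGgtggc
H2-D1, chr17:35262993-35263022, plus strand: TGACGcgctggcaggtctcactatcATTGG

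In all 3 chain promoters TGACG was followed by ATTGG after exactly 20 bases. That spacing was noticed in these sequences first, and on either strand it was present in 31 of 32851 RefSeq promoter windows (0.0944%). Over the 135 bases shown, H2-K1 was identical to H2-D1 at 124 positions (91.9%) and to B2m at 51 (37.8%). On both strands, TGACG was present in 5 of the 7 genes against 20.8% of all promoter windows, CCAAT in 6 against 37.4%, and the NF-kB letters in 4 against 43.8%. The IRF letters were present in B2m alone, against 8.56% of all windows. Only this exact pattern was searched, so its absence from the H2-K1 and H2-D1 windows does not show that they lack an IRF site. The STAT letters (TTCNNNGAA) were present in Psmb8 alone, against 8.30% of all windows. The ETS letters AGGAAGT, of the kind that SPI1 binds, were in none of the 7 windows against 9.35% of all, which says only that these letters are not in these windows. Tap1 and Psmb9 are divergent neighbours, so their windows cover 275 common bases (chr17:34187306-34187580) and their matches are the same letters read from opposite strands.

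**Figure D1:**
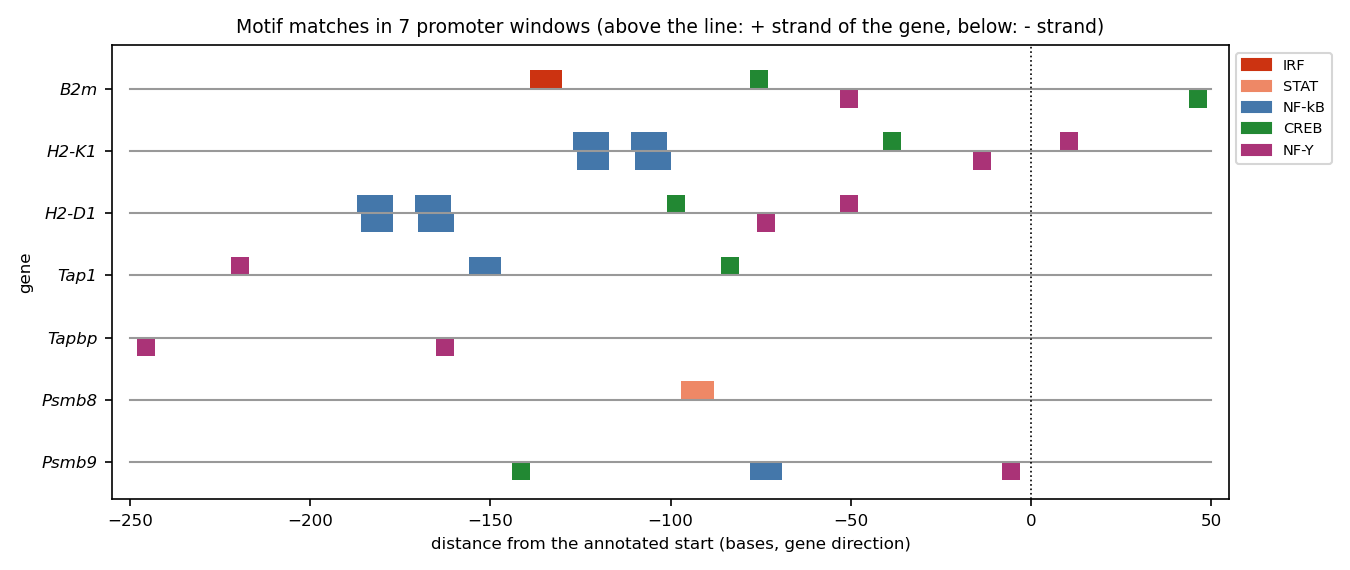
Motif matches in the promoter windows of 7 genes, by distance from the start annotated by RefSeq in bases, with + strand matches above each line and - strand matches below it. B2m, H2-K1 and H2-D1 share a CREB and an NF-Y match 20 bases apart, Psmb8 has a STAT match alone, and Tap1 and Psmb9 show the same matches in mirror image.

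The class I chains were the most abundant of the 10 genes. Per kb of exon, the mean level in model 1 fell from B2m (341 CPM per kb) through H2-D1 (168) and H2-K1 (72.7) to Tapbp (21.5), Tap2 (18.2), Psmb8 (6.38), Tap1 (3.96), Psmb9 (2.76), Nlrc5 (0.131) and Ciita (0.0118). The order was the same in model 2 apart from Psmb8 (11.1) and Psmb9 (4.75), which stood above Tap2 (10.5) and Tap1 (3.96) respectively. H2-K1 was the steadiest gene across the libraries of model 1, with a highest level 1.59 times the lowest, followed by H2-D1 (2.64), Tapbp (3.03), Tap2 (3.95) and B2m (4.07). Tap1 spread over 6.51 times, Psmb9 over 11.3 times and Psmb8 over 20.9 times. The lowest value of H2-K1, Tap1, Tap2, Tapbp, Psmb8 and Psmb9 in model 1 was in the same library, that of leukemic_28. In model 2, the library of preleukemic_633 held the lowest value of B2m, H2-K1, H2-D1, Psmb8, Psmb9 and Nlrc5.

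**Figure D2:**
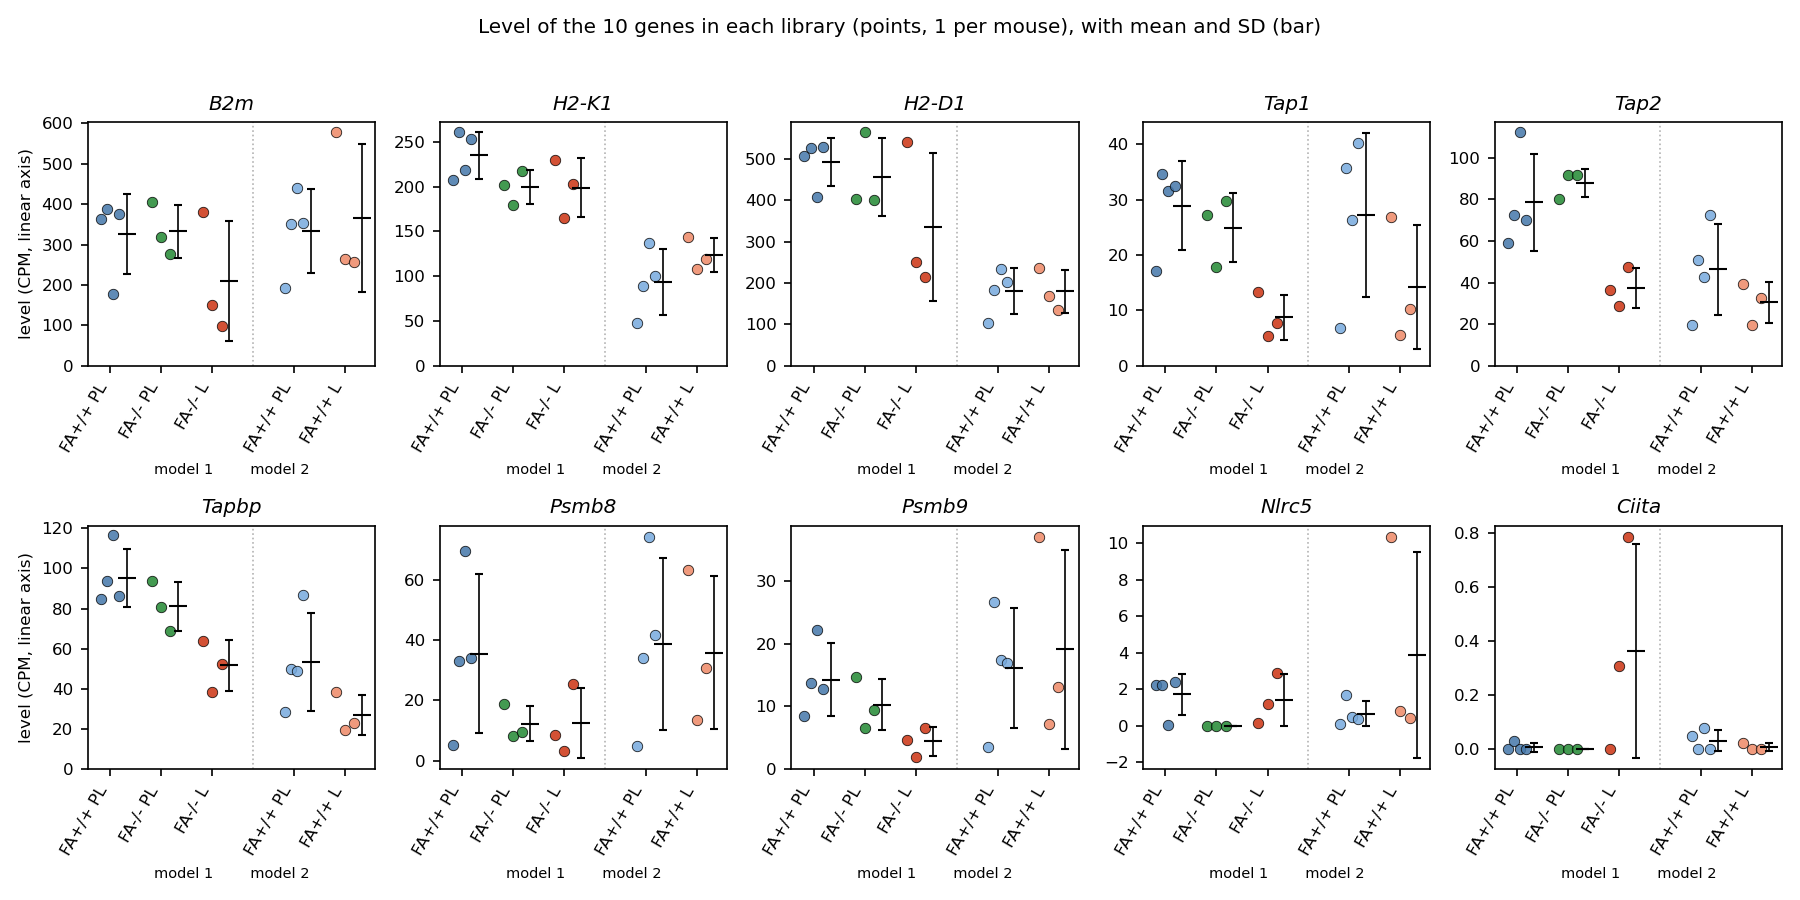
Level of each of the 10 genes in CPM on linear axes, with 1 point per mouse and the mean and SD beside each group (PL, preleukaemic; L, leukaemic; FA+/+ and FA-/-, the Fanca genotype; the dotted line separates the models). Tap1, Tap2 and Tapbp of the 3 leukaemic FA-/- mice lie below all preleukaemic mice of model 1, whereas Psmb8 and B2m overlap between groups, and Nlrc5 is at 0 in the 3 preleukaemic FA-/- mice.

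The first comparison asked what differed between leukaemic and preleukaemic TgSpi1FA-/- blasts of model 1. Tap1 and Tap2, which together form the peptide transporter, were lower in the leukaemic blasts, by 2.85-fold and 2.35-fold. Nlrc5, the class I transactivator, was counted in all 3 leukaemic libraries and in no preleukaemic one. B2m, H2-K1, H2-D1, Tapbp, Psmb8 and Psmb9 did not pass the thresholds, set for edgeR's quasi-likelihood test at an adjusted p below 0.05 together with a change of 1.5-fold or more. Of the 9 genes tested, 3 were called, against 13.3% of the 13393 genes tested in this comparison. Their log2 fold changes were below 0 for 7 of 9, with a median of -0.65, whereas the median over all genes was -0.0012.

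Tap1 was at 17.9, 29.7 and 27.1 CPM in the preleukaemic mice, and at 13.3, 5.32 and 7.64 CPM in the leukaemic mice. The groups did not overlap, and leukemic_26 came nearest to the preleukaemic range. The log2 fold change was -1.51 (SE 0.40, adjusted p = 0.0375). Tap2 was at 91.7, 91.9 and 80.2 CPM in the preleukaemic mice, and at 36.4, 28.5 and 47.3 CPM in the leukaemic mice. Every leukaemic value lay well under the lowest preleukaemic value, at a log2 fold change of -1.23 (SE 0.26, adjusted p = 0.0204). Tapbp, which encodes tapasin, was at 80.7, 68.9 and 93.5 CPM in the preleukaemic and at 64.0, 38.5 and 52.5 CPM in the leukaemic mice. Its groups did not overlap either, but the log2 fold change of -0.65 (SE 0.21) had an adjusted p of 0.0688. Tap1, Tap2 and Tapbp were thus lower without overlap, as were 19.3% of all genes tested, and the exact two-sided permutation test of each gave p = 0.1, the smallest that 3 against 3 mice allow.

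These calls did not all hold when single mice were left out. Calls over all genes fell as well, from 1782 to 822 without preleukemic_77, 418 without preleukemic_224 and 833 without preleukemic_40. They fell to 414 without leukemic_28 and 711 without leukemic_39, and rose to 2319 without leukemic_26. The lost calls cannot be told apart from this wider fall. Tap1 lost its call without preleukemic_77 (adjusted p = 0.0562), preleukemic_224 (0.115), preleukemic_40 (0.085), leukemic_28 (0.119) or leukemic_39 (0.109), and Tap2 lost its call without preleukemic_77 (0.0547), preleukemic_224 (0.0689) or leukemic_28 (0.0739). Their log2 fold changes stayed between -1.94 and -1.22 for Tap1 and between -1.41 and -1.05 for Tap2. Without leukemic_39, the library low in Spi1, Tap2 kept its call (adjusted p = 0.0356). With preleukemic_445 and preleukemic_479 summed to 1 sample of the shared fit, an alternative chosen after the data had been seen, Tap2 alone stayed past the thresholds (adjusted p = 0.0355), and Tap1 (0.0576) and Nlrc5 (0.0667) did not. In a fit of the compared groups alone, Tap2 was again the only gene called (Tap1, adjusted p = 0.0786), and without a filter on low counts Tap1 was at an adjusted p of 0.0515. Nlrc5 did not pass that filter in the fit of the compared groups alone and was not tested in it.

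The chains of the class I molecule showed a split among the leukaemic mice. B2m was at 319, 276 and 404 CPM in the preleukaemic mice, and at 380, 151 and 99.3 CPM in the leukaemic mice. H2-D1 was at 565.5, 399.6 and 403 CPM in the preleukaemic and at 539.6, 249 and 214 CPM in the leukaemic mice. In both genes leukemic_26 lay within the preleukaemic range and the other 2 leukaemic mice lay below it. The paper reports a Kit mutation in the blasts of leukemic_26 and an Nras mutation in those of leukemic_28 and leukemic_39. The part of these mutations in the split was not tested. B2m had a log2 fold change of -0.66 (SE 0.47, adjusted p = 0.363) and H2-D1 one of -0.45 (SE 0.32, adjusted p = 0.372). Without leukemic_26, 7 of the 10 genes were called, as were 2319 of the 14031 genes tested in that fit (1782 of 13393 with all mice). B2m (log2 fold change -1.41, adjusted p = 0.0345), H2-D1 (-0.97, 0.0169) and Tapbp (-0.83, 0.0333) passed the thresholds as well in that fit. H2-K1 did not follow this pattern. It was at 179, 218 and 202 CPM in the preleukaemic and at 230, 165 and 203 CPM in the leukaemic mice, with a log2 fold change of -0.00 (SE 0.15, adjusted p = 0.988).

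**Figure D3:**
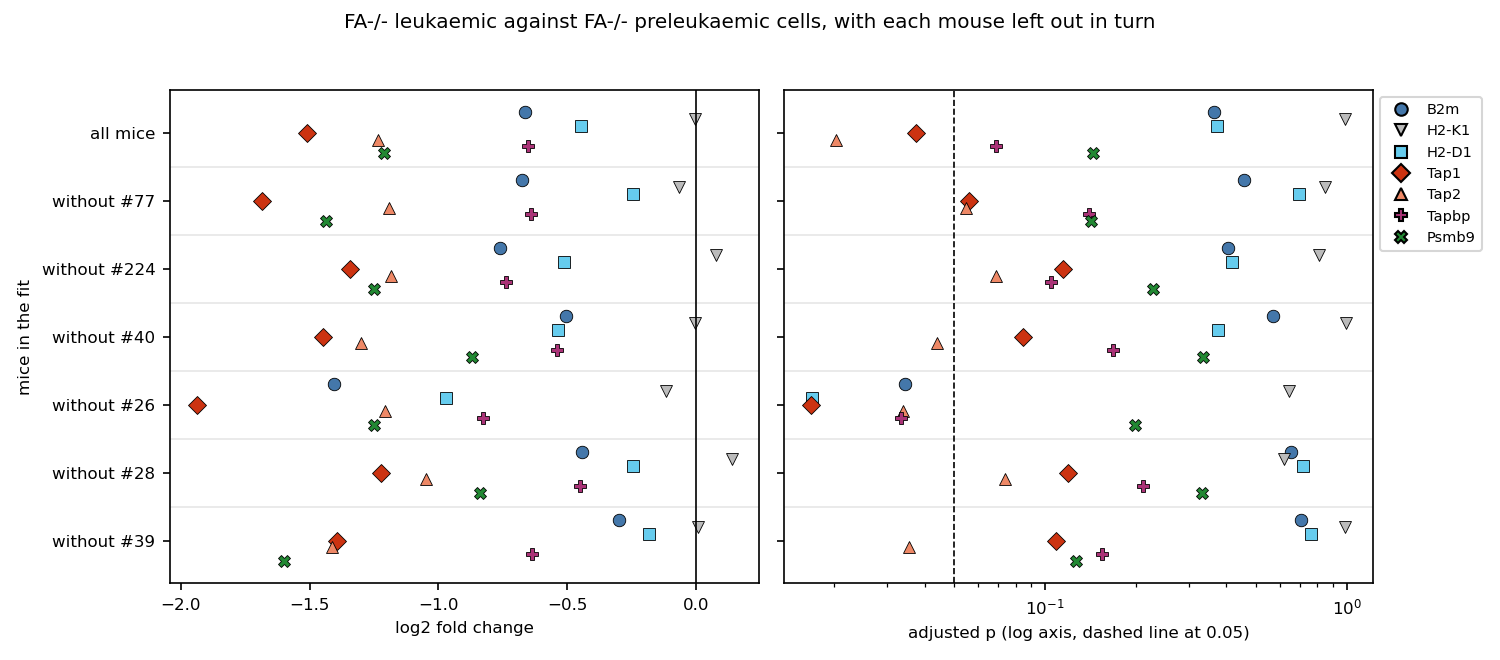
Log2 fold change (left) and adjusted p on a log axis with a dashed line at 0.05 (right) of 7 genes between leukaemic and preleukaemic FA-/- blasts, with all mice and with each mouse of the compared groups left out in turn (the number after # ends the name of the mouse). Tap1 and Tap2 stay below 0 throughout, and B2m, H2-D1 and Tapbp pass 0.05 only without leukemic_26, at adjusted p of 0.0345, 0.0169 and 0.0333.

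Neither immunoproteasome subunit was called. Psmb9 was at 6.60, 9.47 and 14.7 CPM in the preleukaemic mice, and at 4.66, 1.97 and 6.62 CPM in the leukaemic mice, where leukemic_39 just exceeded preleukemic_77. The log2 fold change was -1.21 (SE 0.52, adjusted p = 0.144). Psmb8 was at 8.27, 9.62 and 18.9 CPM in the preleukaemic and at 8.41, 3.32 and 25.5 CPM in the leukaemic mice. Leukaemic blasts thus held both its lowest and its highest value, and the log2 fold change of 0.02 (SE 0.89, adjusted p = 0.992) turned to -1.03 without leukemic_39.

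Nlrc5 rested on few reads. It passed the filter on low counts only with the TgSpi1FA+/+ libraries in the fit, and was not tested in a fit of the compared groups alone. It had 0 counts in each of the 3 preleukaemic mice, and 5, 47 and 115 counts in the leukaemic mice, which correspond to 0.137, 1.20 and 2.92 CPM. The groups did not overlap, as for 19.4% of all genes with a higher leukaemic group. Against a floor of 3 counts per library, the leukaemic mean was at least 15.0-fold higher (adjusted p = 0.0415), and this bound was 21.8 without leukemic_26, 16.2 without leukemic_28 and 7.09 without leukemic_39. The call was lost without preleukemic_77 (adjusted p = 0.0886), preleukemic_224 (0.102), preleukemic_40 (0.0845), leukemic_28 (0.0911) or leukemic_39 (0.0866). Floors cover counting error only. Ciita, the class II transactivator, had no count in the preleukaemic mice and 0, 12 and 31 counts in the leukaemic mice. It was left out of the test by the filter on low counts, and the leukaemic mean was at least 3.86-fold above the floor, or 5.79 without leukemic_26, 4.16 without leukemic_28 and 1.62 without leukemic_39. Among the leukaemic mice, leukemic_39 held the most Nlrc5 and also the most Tap2, whereas leukemic_28, lowest in Tap1 and Tap2, lay between the others in Nlrc5.

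**Figure D4:**
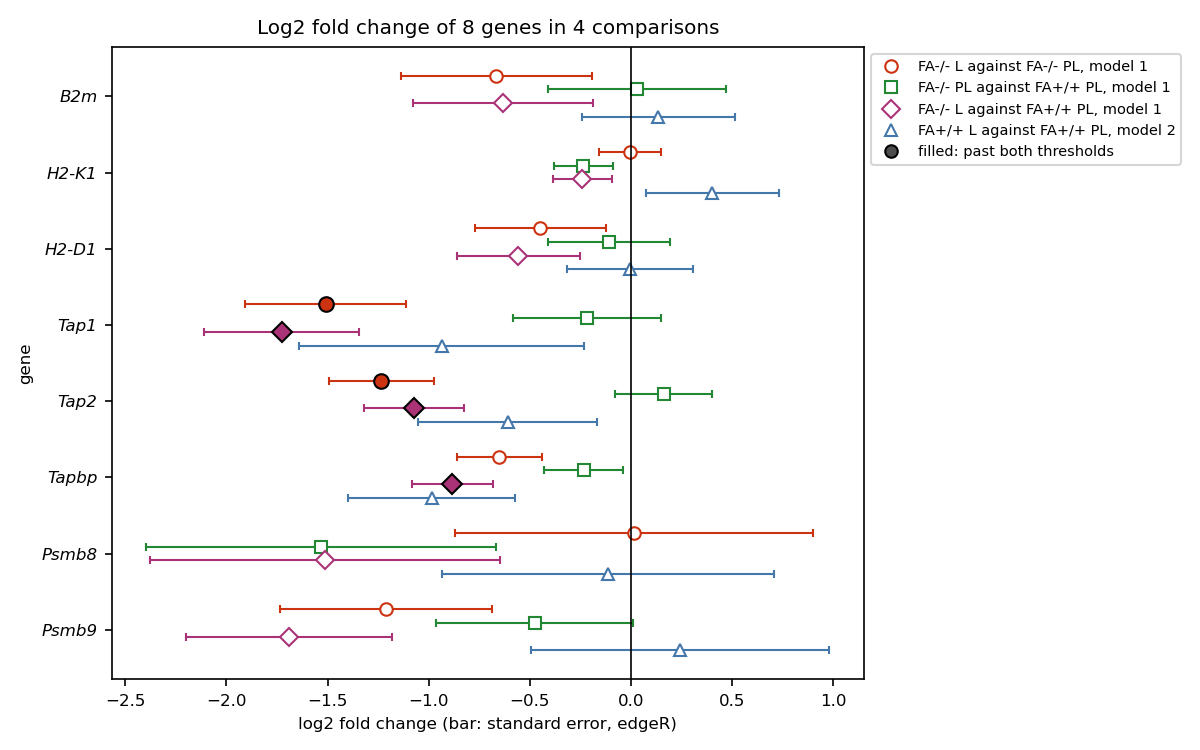
Log2 fold change and its standard error for 8 genes in 4 comparisons, with filled symbols where both thresholds were passed (L, leukaemic; PL, preleukaemic). Tap1 and Tap2 are filled in both comparisons that use the leukaemic FA-/- mice, Tapbp in the comparison with FA+/+ preleukaemic mice alone, and nothing in model 2. Nlrc5 and Ciita are not plotted.

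Among further genes of the pathway, grouped in lists fixed with earlier results of these data known, few passed the thresholds in the same comparison. Of 8 partners in peptide loading and trimming, 1 was lower, Erap1, the aminopeptidase that trims peptides in the endoplasmic reticulum, a share close to the 13.3% of all genes called. Its highest leukaemic value, 34.6 CPM, lay under its lowest preleukaemic value, 59.5 CPM, with a log2 fold change of -1.17 (SE 0.30, adjusted p = 0.0332). The chaperones Calr (log2 fold change -0.26) and Canx (0.09) were not called. Of 10 interferon receptors and signalling genes, 3 were lower and 1 higher, against 13.3% of all genes called, with a median of -0.635. Stat2 (log2 fold change -1.39, adjusted p = 0.00443) and the kinases Tyk2 (-2.02, 0.0165) and Jak1 (-1.34, 0.0372), which carry signals of interferon receptors, were the lower genes. Ifngr2, a chain of the interferon gamma receptor, was higher (1.33, 0.023). None of 12 other class I and class I-like genes, 13 class I promoter factors, 4 immunoproteasome partners, 3 constitutive catalytic subunits and 4 class II genes was called by edgeR. At an unadjusted p under 0.05 those lists held 1, 3, 0, 1 and 1 genes, against 32.4% of all genes. Examples with the highest levels were H2-Q4 (log2 fold change -0.43) and H2-T24 (-0.87) among the class I genes, Nfkb1 (-1.14) and Nfya (-0.57) among the promoter factors, and Pomp (0.11) and Psme1 (-0.60) among the proteasome partners. The constitutive subunits Psmb7 (log2 fold change 0.46, adjusted p = 0.0365, under the fold threshold) and Psmb6 (0.27) had positive fold changes, and the class II genes H2-DMa (0.11) and H2-Oa (-3.49) were not called.

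Markers of erythroid maturation moved in the same libraries as the transporter. Klf1, an erythroid transcription factor, fell from 331 ± 33.8 CPM to 137 ± 32.9 CPM (SD, n = 3 each, adjusted p = 0.00626), and Hbb-bt, an adult beta globin, fell from 218 ± 152 CPM to 3.55 ± 3.796 CPM (SD, n = 3 each, adjusted p = 0.0265). The summed level of all 8 erythroid markers was 3089 to 4148 CPM in the preleukaemic and 1961 to 3223 CPM in the leukaemic mice. The summed dendritic cell markers, which were nearly all Zbtb46, were 11.6 to 46.8 CPM and 21.1 to 69.8 CPM. Their part in the fall of Tap1 and Tap2 was not tested. Summed B cell markers were at 0.0328 CPM or less in the preleukaemic and between 0.228 and 0.521 CPM in the leukaemic mice. Summed markers of stroma and endothelium were 0.0585 to 1.13 CPM and 1.29 to 2.12 CPM, and those of T cells (0.0328 CPM at most) and of macrophages and granulocytes (0.511 CPM at most) overlapped. The part of these lists was not tested either.

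The comparison of TgSpi1FA-/- with TgSpi1FA+/+ preleukaemic blasts asked what Fanca loss changed before leukaemia. Log2 fold changes of the transporter, tapasin and chain genes lay between -0.24 and 0.16, and Nlrc5 was the only gene among these 10 whose groups did not overlap. Nlrc5 passed the filter on low counts only through the TgSpi1FA+/+ libraries, the higher group of this comparison. Its lack of overlap and its p-values here are therefore descriptions of a gene which that group let in. Of the 9 genes tested, edgeR called 0, with 1 (Nlrc5) at an unadjusted p under 0.05, against 0.00747% of all genes called. DESeq2's Wald test called 1 of them, which was Nlrc5 (adjusted p = 0.000226), and 256 of all genes. The median log2 fold change was -0.234, against 0.00482 over all genes.

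Nlrc5 was at 0 counts in the 3 TgSpi1FA-/- preleukaemic mice and at 71, 75, 2 and 79 counts in the TgSpi1FA+/+ mice. All 4 TgSpi1FA+/+ values exceeded 0, although preleukemic_451 was under the floor of 3 counts. The TgSpi1FA+/+ mean was at least 18.3-fold above the floor, and at least 24.1-fold without preleukemic_451. It was at least 16.5-fold without preleukemic_445 and 16.0-fold without preleukemic_479. These bounds hold for the first table only. In the second deposited table, scaled by raw totals, the same 4 mice were at 0.323, 0.207, 0.118 and 3.49 CPM. The TgSpi1FA-/- preleukaemic mice are not in that table. Without overlap, 4.27% of all genes were lower in the TgSpi1FA-/- blasts. The adjusted p was 0.535 in edgeR and the exact two-sided permutation test gave p = 0.0571, the smallest that 3 against 4 mice allow. The permutation test counted preleukemic_445 and preleukemic_479 as separate mice. Leaving out each mouse in turn left the adjusted p between 0.179 and 0.911.

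The other 8 tested genes had an unadjusted p above 0.05. Tap1 was at 34.6, 32.4, 31.6 and 17.1 CPM in the TgSpi1FA+/+ mice, a mean of 28.9 ± 7.98 CPM (SD, n = 4) against 24.9 ± 6.21 CPM (SD, n = 3) without Fanca. The log2 fold change was -0.22 (SE 0.36, adjusted p = 0.919). Tap2 was at 72.6, 70.0, 113 and 59.0 CPM in those mice, and Tapbp at 93.6, 86.5, 116 and 84.7 CPM. Tap2 (log2 fold change 0.16, SE 0.24) and Tapbp (-0.23, SE 0.20) thus had differences in opposite directions, each near its standard error. H2-K1 was at 261.5, 253, 218 and 207 CPM in the TgSpi1FA+/+ mice, with a log2 fold change of -0.24 (SE 0.15, adjusted p = 0.687). H2-D1 was at 525, 528, 407 and 507 CPM and B2m at 387, 377, 177 and 364 CPM, so preleukemic_451 was the lowest of its group in both. Their log2 fold changes were -0.11 (SE 0.30) and 0.03 (SE 0.44). Psmb8 was at 32.9, 33.95, 69.6 and 5.25 CPM and had the largest tested difference apart from Nlrc5, at -1.53 (SE 0.87, adjusted p = 0.653). The TgSpi1FA+/+ values reached both above and below all 3 TgSpi1FA-/- values. Psmb9 was at 13.7, 12.7, 22.2 and 8.41 CPM, with a log2 fold change of -0.48 (SE 0.49, adjusted p = 0.836). Ciita had 1, 0, 0 and 0 counts, which is under the floor in both genotypes.

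Leukaemic TgSpi1FA-/- blasts were also set against preleukaemic TgSpi1FA+/+ blasts, a comparison that shares all its libraries with those above and combines genotype and stage. Tap1, Tap2 and Tapbp were lower in the leukaemic blasts, by 3.31-fold, 2.10-fold and 1.84-fold. The ranges of the groups did not meet for these genes or for Psmb9. Of the 9 genes tested, 3 were called, against 7.01% of all genes, and all 9 log2 fold changes were below 0 with a median of -0.884 (0.0106 over all genes).

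The log2 fold change was -1.73 for Tap1 (SE 0.38, adjusted p = 0.0333), -1.07 for Tap2 (SE 0.25, adjusted p = 0.0357) and -0.88 for Tapbp (SE 0.20, adjusted p = 0.035). Psmb9 was close behind, at -1.69 (SE 0.51, adjusted p = 0.0726). The 4 genes did not overlap between the groups, as was so for 12.9% of all genes with a lower leukaemic group, and each gave p = 0.0571 in the exact permutation test. That test, too, counted preleukemic_445 and preleukemic_479 as separate mice. Nlrc5 overlapped widely between the groups, with a log2 fold change of -0.28 (SE 1.19, adjusted p = 0.905). Ciita was at least 3.94-fold above the floor in the leukaemic mean, or 5.91 without leukemic_26, 4.25 without leukemic_28 and 1.66 without leukemic_39.

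All 3 calls were lost when preleukemic_445 and preleukemic_479 were summed to 1 sample (adjusted p = 0.0885 for Tap1, 0.0812 for Tap2 and 0.0812 for Tapbp). They were also lost without preleukemic_445 (0.0897, 0.0846 and 0.0885 in that order), preleukemic_479 (0.089, 0.0809 and 0.0789), preleukemic_451 (0.0708, 0.0599 and 0.0757), leukemic_28 (0.118, 0.132 and 0.122) or leukemic_39 (0.111, 0.0608 and 0.107). Calls over all genes also fell in these fits, from 939 to between 53 and 379. The direction of the 3 genes never changed. Without preleukemic_138, Psmb9 was called as well, and without leukemic_26, B2m (log2 fold change -1.38, adjusted p = 0.0373), H2-D1 (-1.09, 0.0132) and Ciita joined the 3 genes. Over all genes, 1536 were called without preleukemic_138 and 1911 without leukemic_26. DESeq2's Wald test called Psmb9 in addition, and 2245 of all genes. Of the interferon signalling list, 4 of 10 genes were lower, against 7.01% of all genes called in either direction: Stat2 (log2 fold change -1.03), Jak1 (-1.47), Tyk2 (-1.61) and Irf9 (-1.50, adjusted p = 0.0399). Among the markers, Klf1 was at 283 ± 14.5 CPM (SD, n = 4) in the TgSpi1FA+/+ blasts and Zbtb46 was higher in the leukaemic blasts (log2 fold change 2.36, adjusted p = 0.0462). Their part in these differences was not tested.

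A second deposited table held other counts for the same 7 mice, with 35497594 to 171572736 counts per library. There the 3 genes kept their direction, at log2 fold changes of -1.54 for Tap1 (adjusted p = 0.238), -1.31 for Tap2 (0.174) and -0.88 for Tapbp (0.351), and none was called. Tap1 was at 27.1, 8.51 and 6.45 CPM in the leukaemic and at 60.0, 22.1, 43.6 and 26.9 CPM in the preleukaemic mice, scaled by raw totals. The mouse leukemic_26 thus exceeded preleukemic_479 and preleukemic_138. Nlrc5 turned direction, to 1.93, where preleukemic_445 and preleukemic_479 stood at 0.323 and 0.207 CPM, against 2.22 and 2.38 CPM in the first table, and leukemic_39 at 8.96 CPM.

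In model 2, where Fanca was intact, leukaemic and preleukaemic TgSpi1FA+/+ blasts overlapped in all 9 genes tested. No gene passed the thresholds. Mean Tapbp was 27.03 ± 10.01 CPM (SD, n = 3) in leukaemic and 53.5 ± 24.3 CPM (SD, n = 4) in preleukaemic blasts. edgeR called 0 of the 9 genes and 0.0% of all 12970 genes, of which 2587 had an unadjusted p under 0.05, with 1 of the 9 (Tapbp) at an unadjusted p under 0.05, and DESeq2's Wald test called 0 of the 9 and 470 of all genes. The median log2 fold change was -0.00445, against -0.0303 over all genes.

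Tapbp was at 28.6, 49.9, 48.8 and 86.9 CPM in the preleukaemic mice, and at 38.4, 19.5 and 23.2 CPM in the leukaemic mice. The mouse preleukemic_633 lay between the leukaemic values, and the log2 fold change was -0.99 (SE 0.41, adjusted p = 0.24). Tap1 was at 6.86, 35.7, 26.3 and 40.2 CPM and at 26.9, 5.53 and 10.3 CPM in the same order, with a log2 fold change of -0.94 (SE 0.71, adjusted p = 0.494). Tap2 was at 19.7, 50.8, 42.7 and 72.6 CPM and at 39.3, 19.7 and 32.4 CPM, with a log2 fold change of -0.61 (SE 0.44, adjusted p = 0.479). In all 3 genes preleukemic_633 stood far below the other preleukaemic mice and leukemic_601 highest among the leukaemic mice.

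None of the chains passed the test. B2m was at 192, 350, 439 and 353 CPM in the preleukaemic and at 578, 265 and 257 CPM in the leukaemic mice (log2 fold change 0.14, SE 0.38). H2-D1 was at 103, 182, 234 and 201 CPM and at 236, 168 and 134 CPM (-0.00, SE 0.31). H2-K1 was at 47.6, 89.3, 137 and 100.1 CPM and at 144, 107 and 119 CPM (0.40, SE 0.33, adjusted p = 0.532). The highest value of each chain was in leukemic_601, and the lowest in preleukemic_633. Psmb8 was at 4.71, 33.9, 74.3 and 41.6 CPM and at 63.2, 13.3 and 30.6 CPM. Psmb9 was at 3.48, 26.7, 17.4 and 16.9 CPM and at 37.0, 7.21 and 13.0 CPM. Both spread more within each stage than between the stage means. Their log2 fold changes were -0.11 (SE 0.82) and 0.24 (SE 0.74).

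Nlrc5 had 4, 67, 19 and 16 counts in the preleukaemic mice, and 404, 32 and 15 counts in the leukaemic mice. The leukaemic mean was set by leukemic_601, at 10.4 CPM, and the log2 fold change of 2.53 (SE 1.26, adjusted p = 0.306) became -0.10 (adjusted p = 0.973) without it. Ciita had 2, 0, 3 and 0 counts and 1, 0 and 0 counts, at or under the floor in both stages. No gene of the further pathway lists was called by edgeR in model 2 or between the preleukaemic genotypes. Erythroid markers summed to 3810 to 4982 CPM in the preleukaemic and to 2026 to 3796 CPM in the leukaemic mice of model 2, and their part in these values was not tested.

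Whether the leukaemic change differed between the models was tested as an interaction over the 14597 tested genes of both tables. edgeR called 0 of the 9 genes, against 4.61% of all genes, with 1 (Nlrc5) at an unadjusted p under 0.05. DESeq2's Wald test called 0 of the 9 and 2037 of all genes. The difference of the log2 fold changes, model 1 minus model 2, was -0.56 for Tap1 (SE 0.83, adjusted p = 0.702), -0.63 for Tap2 (SE 0.52, adjusted p = 0.472) and 0.34 for Tapbp (SE 0.46, adjusted p = 0.68). The lower transporter level was thus not shown to be particular to blasts without Fanca. Nlrc5 had an adjusted p of 0.16, with a group at 0 counts in model 1. Strain, protocol, Fanca genotype and the way of progression (with or without blood transfusions) cannot be told apart in this contrast.

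Across libraries, the genes of the transporter varied together. Within the 10 libraries of model 1, Pearson's r of log2(CPM + 0.5) was 0.89 between Tap1 and Tapbp, 0.88 between Tap1 and Psmb9 and 0.835 between Tap1 and Tap2. B2m followed H2-D1 (0.891) and Psmb8 followed Psmb9 (0.819). The same pairs stood high over the 7 libraries of model 2: Tap1 with Tap2 at 0.953, Tap1 with Tapbp at 0.903, B2m with H2-D1 at 0.938 and Psmb8 with Psmb9 at 0.90. Nlrc5 correlated with the other genes of model 1 at -0.411 to 0.24, and in model 2 with Tap1 at 0.377 and with B2m at 0.768. These coefficients are descriptions, since libraries of a group share stage and genotype. In the whole table of model 1, the genes most like Tap1 were Slc25a20 (r = 0.992), Hmgn5 (0.973) and Pde4b (0.97), and those most like Tap2 were Usp8 (0.975), Nmi (0.974) and Paqr9 (0.967). In model 2, Slc25a20 correlated with Tap1 at 0.186 and Nmi with Tap2 at 0.327. The genes most like Tapbp were Psmf1 (0.963, 0.72 in model 2), Thoc5 (0.959) and Mtfr2 (0.928). Psmb8 was most like Msh5 (0.922), Trim21 (0.907) and H2-Q6 (0.904), and Psmb9 most like Babam2 (0.935), Pcyt1b (0.92) and Tapbp (0.92). For B2m they were Lxn (0.973), Sri (0.962) and Riok1 (0.945), for H2-D1 Tbc1d9b (0.963), Pa2g4 (0.959) and Ormdl2 (0.955), for H2-K1 Poc1b (0.949), Mtmr14 (0.92) and Adam4 (0.913), and for Nlrc5 Iqgap2 (0.963), Pold3 (0.919) and Calm2 (0.914). These partners were picked for their high r in model 1. In model 2 the r of all these pairs ranged from -0.663 (H2-D1 with Tbc1d9b) to 0.808 (H2-K1 with Adam4), and Psmb9 with Tapbp was at 0.515.

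The inducible subunits replace constitutive ones when an immunoproteasome is built: PSMB8 takes the place of PSMB5, PSMB9 that of PSMB6 and PSMB10 that of PSMB7. Per kb of exon, Psmb8 amounted to 36.8 ± 29.2% of Psmb5 (SD, n = 4) in TgSpi1FA+/+ preleukaemic blasts of model 1, to 13.4 ± 6.80% (SD, n = 3) in TgSpi1FA-/- preleukaemic and to 11.8 ± 10.2% (SD, n = 3) in TgSpi1FA-/- leukaemic blasts. In model 2 it was 45.7 ± 30.6% (SD, n = 4) before and 29.0 ± 21.7% (SD, n = 3) in leukaemia, so the SD of the groups covered most of the differences. Psmb9 was scarce beside Psmb6 in every group, at 3.78 ± 2.09%, 2.84 ± 1.45% and 0.965 ± 0.496% in the 3 groups of model 1 in the same order and at 3.83 ± 2.53% and 2.42 ± 2.56% in model 2. Per kb, Psmb10, the third inducible subunit, stood nearer to its counterpart, at 46.4% to 72.2% of Psmb7 in the group means. Exon lengths set this order (Psmb8 3.381 kb, Psmb5 0.899 kb, Psmb10 1.705 kb, Psmb7 3.421 kb). In CPM without length, TgSpi1FA+/+ preleukaemic blasts of model 1 held Psmb8 at 35.4 against 25.5 for Psmb5. Psmb10 was at 65.9 CPM against 225.5 for Psmb7 there. Which of Psmb8 and Psmb10 stood nearer its counterpart thus depended on the scaling by length. Inducible subunits were thus not present in a common ratio to the constitutive ones.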

How the data were processed

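RNA-seq counts of 17 mice were used, with 1 library per mouse. The authors deposited unnormalized read counts for each Ensembl gene, 1 table per model. The submitters' processing notes name STAR 2.5.3a, HTSeq 0.6.1p1, bcl2fastq 2.17.1.14 and the build mm10, without their roles. Libraries were made from polyadenylated RNA with a stranded kit. A duplicate of the model 2 counts was set aside, and a second table of 7 mice of model 1 served as an alternative.

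Counts were normalized by TMM after filterByExpr and tested with edgeR 4.0.16 (glmQLFit, glmQLFTest, R 4.3.3) over all genes, 13393 in model 1 (3 groups in 1 fit) and 12970 in model 2. Adjustment followed Benjamini and Hochberg. Permutation tests (scipy 1.17.1) used log2(CPM + 0.5). Groups at 0 were set to a floor of 3 counts per library. Replicate numbers are mouse numbers and pair no samples. Alternatives were DESeq2's size factors and Wald test (1.42.0), no filter, 1 CPM in 3 libraries, robust empirical Bayes, the adjusted p alone, only the compared groups, preleukemic_445 and preleukemic_479 summed, and leaving out each mouse. The steps were tested on simulated data. Levels per kb used the exon length of GENCODE M21, which held 99.8% of the identifiers of model 1 and 99.87% of model 2.

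The genes and lists were chosen with earlier results of these data known. Named were the 10 genes, called genes of the lists or else the pair with the highest level, and the 3 genes most like each of the 10.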

Additional observations from a re-analysis of the deposited data

Results flagged for a closer look

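In 22 gene and group combinations of 4 mice, the gap between the most extreme mouse and its nearest neighbour was set against the range of the group. Chance flags about 1 in 20 such groups, and 3 were flagged here, all in the preleukaemic TgSpi1FA+/+ mice of model 1 and all for preleukemic_451. B2m was at 177 CPM in preleukemic_451 and at 364 to 387 CPM in the other mice, with a gap of 0.89 of the range. H2-D1 was at 407 CPM in preleukemic_451 and at 507 to 528 CPM in the others. Nlrc5 was at 0.0641 CPM in preleukemic_451, which is 2 counts, and at 2.22 to 2.38 CPM in the others, with a gap of 0.929 of the range. preleukemic_451 also held the highest Tap2, Tapbp, Psmb8 and Psmb9 values of model 1. The similarity of preleukemic_445 and preleukemic_479 makes 2 of the other 3 values nearly 1 sample in this table, which was not so in the second table. There, scaled by raw totals, B2m of preleukemic_451 was again lowest, at 173 CPM against 286 to 337. H2-D1 of preleukemic_451 (402 CPM) lay there between preleukemic_479 (382) and preleukemic_138 (404). Nlrc5 there was at 0.118 CPM in preleukemic_451, 0.207 in preleukemic_479, 0.323 in preleukemic_445 and 3.49 in preleukemic_138.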

How the results depend on the processing

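The number of the 10 genes called between leukaemic and preleukaemic TgSpi1FA-/- blasts was 3 and became 1 with only the 2 compared groups or with preleukemic_445 and preleukemic_479 summed (chosen after the data had been seen), 2 without a filter, where Tap1 lost its call, and 0 to 7 with a mouse left out. Against TgSpi1FA+/+ preleukaemic blasts it was 3 and became 0 with only the compared groups, with preleukemic_445 and preleukemic_479 summed and in the second table, and 0 to 6 with a mouse left out. Between the preleukaemic genotypes it was 0 and became 1 with DESeq2's Wald test, which called 256 of all genes. For the difference between the models it was 0, and 0 to 1 (Ciita) with a mouse left out, and in model 2 it was 0 under every alternative. With DESeq2's Wald test, no filter, or preleukemic_445 and preleukemic_479 summed, the genes called over the whole table between the TgSpi1FA-/- stages numbered 3099, 1407 and 1242 against 1782, and between leukaemic TgSpi1FA-/- and preleukaemic TgSpi1FA+/+ blasts 2245, 780 and 122 against 939. With a mouse left out, they numbered 414 to 2319 in the former comparison and 53 to 1911 in the latter. In the fit of only the TgSpi1FA-/- groups, Nlrc5 did not pass the filter on low counts and was not tested.

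Direction turned where the log2 fold change was near 0 or 1 mouse set it. H2-K1 between the TgSpi1FA-/- stages was 0.0447 with DESeq2's size factors, 0.0391 with its Wald test, 0.0110 without a filter, 0.0144 with the filter of 1 CPM and 0.0311 with only the compared groups, and ranged from -0.12 to 0.14 with a mouse left out. H2-D1 in model 2 was 0.0013 with DESeq2's size factors and 0.0266 with the filter of 1 CPM, and ranged from -0.25 to 0.17 with a mouse left out. Nlrc5 between leukaemic TgSpi1FA-/- and preleukaemic TgSpi1FA+/+ blasts was 1.93 in the second table and ranged from -1.35 to 0.25 with a mouse left out. Further ranges with a mouse left out that crossed 0 were, for the TgSpi1FA-/- stages, Psmb8 from -1.03 to 0.49, for the preleukaemic genotypes, B2m from -0.18 to 0.14, for model 2, B2m from -0.35 to 0.33, Psmb8 from -0.82 to 0.44, Psmb9 from -0.67 to 0.63 and Nlrc5 from -0.10 to 3.52, and for the difference between the models, Psmb8 from -0.93 to 0.81, Tap1 from -1.0 to 0.25 and Tapbp from -0.0303 to 0.65. The cause was not tested. Values of 3 counts or fewer, as for Ciita in all libraries but leukemic_28 and leukemic_39 and for Nlrc5 in preleukemic_451 and the 3 preleukaemic TgSpi1FA-/- mice, were at or under the floor at this depth. No paired analysis was possible because each mouse number occurs in 1 group only.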
